A study of Mus musculus with 9 samples.

Results

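The cytosolic ribosome is built from ribosomal RNA and a set of ribosomal proteins, and the genes of these proteins are described here in mouse lung endothelial cells of 3 ages. Members were taken by symbol: protein-coding genes named Rpl or Rps with a number and at most 1 of the letters a, x or l, together with Rplp0, Rplp1, Rplp2 and Rpsa. This gave 81 of 21883 protein-coding genes in the RefSeq annotation of assembly GRCm38.p6, which is the mm10 build used by the submitters. They lie on 19 chromosomes, with 4 on chromosome X, and their median length of 3175 bp compares with 17170 bp over all genes. No measured value entered the choice.

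Ribosomal protein genes are needed in every dividing and resting cell, and a ribosome carries its proteins in fixed proportion. Their promoters are compact, usually lack a classic TATA box and often start transcription inside a run of pyrimidines, the feature that lets the mTOR pathway control translation of the resulting mRNAs. ETS-family proteins such as GABP, the zinc finger protein YY1 and Sp1 are known to bind many of them.

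Open chromatin was mapped by ATAC-seq, a transposase assay that inserts adapters into accessible DNA, on endothelial cells that had been sorted by fluorescence from mouse lung. There were 3 libraries from infant, 3 from young adult and 3 from mature adult mice, all labelled as endothelial cells of lung. The sources used here give no strain, genotype, sort marker or age in days. They do not say whether each library is a different animal, and the p-values below therefore describe the spread among libraries, which may be technical. By its title and design text the series asks how chromatin changes between a vessel-forming and a resting endothelial state, and the ribosomal protein genes serve here as a reference set that both states use.

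Each library is a list of peaks, the stretches called open, with no height or read number. The infant lists held 88856 to 94646 distinct peaks, the young adult lists 67550 to 68366 and the mature adult lists 59793 to 64208. Sequencing depth is unknown, so the lack of a peak does not show closed chromatin. The libraries young adult 3 and mature adult 1 stand apart by narrower peaks, with a mean width of 487 and 495 bp against 530 to 541 bp in the other 4 adult libraries. All 9 endothelial marker genes checked (among them Pecam1, Cdh5 and Kdr) had a start-site peak in all 9 libraries. Their summed peak number was 197 to 208 in infant, 172 to 189 in young adult and 157 to 183 in mature adult libraries. The summed peak number of 8 fibroblast and mural markers was 75 to 79 in infant, 31 to 35 in young adult and 29 to 30 in mature adult libraries, and that of 7 epithelial markers was 35 to 45, 18 to 27 and 19 to 21. The 7 immune markers summed to 8 to 9, 5 to 9 and 5 to 7 peaks. Of the defining markers, Sftpc, Itgam and Lyz2 had 0 peaks in every library. A start-site peak in all 9 libraries was present at 2 of the 7 epithelial markers, at none of the 7 immune markers and at none of the 8 fibroblast and mural markers.

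Promoter sequences came from RefSeq (GRCm38.p6), whose table held 61 of the 81 genes with 73 start sites, each with 250 bases before and 50 after the start. The letters were searched on both strands. CCGGAA, the core that ETS-family proteins bind, was found in 34 of the 73 windows (46.6%), against 18.7% of the 21262 windows of all genes. AAGATGGC, a YY1 core, was found in 7 (9.59%) against 3.05%. GGGCGG, the Sp1 box, was found in 42 (57.5%) against 46.2%, the E-box CACGTG in 8 (11.0%) against 7.84%, and CTTTCC in 36 (49.3%) against 25.9%. TATAAA was less common at these genes than over all genes, with 7 windows (9.59%) against 12.6%. A run of at least 6 pyrimidines that reached within 5 bases of the start site was found in 33 windows (45.2%) against 20.9%. These shares are descriptions of letters in a window, without a test, and several starts of 1 gene can share a window.

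The promoters of 6 members are printed from 100 bases before to 20 bases after the start. Rplp0 and Rpsa are shown for their known roles, Rpl38 and Rpl31 because they were among the 4 members with the widest start-site peaks, and Rpl35 and Rpl26 because they were among the 4 with the narrowest. Capitals mark CCGGAA and GGGCGG on either strand and a pyrimidine run of at least 6 at the start. No AAGATGGC fell in these stretches. The windows are chr5:115559367-115559486 (plus strand) for Rplp0, chr9:120127666-120127785 (plus) for Rpsa, chr11:114668480-114668599 (plus) for Rpl38, chr1:39367751-39367870 (plus) for Rpl31, chr2:39005112-39005231 (minus) for Rpl35 and chr11:68901466-68901585 (plus) for Rpl26.
Rplp0: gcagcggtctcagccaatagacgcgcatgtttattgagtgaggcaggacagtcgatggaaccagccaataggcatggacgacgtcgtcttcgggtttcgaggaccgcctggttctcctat
Rpsa: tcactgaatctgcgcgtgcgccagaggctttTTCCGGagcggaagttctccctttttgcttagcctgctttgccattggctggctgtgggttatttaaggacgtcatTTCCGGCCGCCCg
Rpl38: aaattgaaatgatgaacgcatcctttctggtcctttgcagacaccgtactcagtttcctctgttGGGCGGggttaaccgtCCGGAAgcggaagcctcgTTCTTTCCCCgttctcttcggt
Rpl31: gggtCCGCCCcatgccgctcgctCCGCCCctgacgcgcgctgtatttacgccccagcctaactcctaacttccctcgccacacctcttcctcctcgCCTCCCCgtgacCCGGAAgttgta
Rpl35: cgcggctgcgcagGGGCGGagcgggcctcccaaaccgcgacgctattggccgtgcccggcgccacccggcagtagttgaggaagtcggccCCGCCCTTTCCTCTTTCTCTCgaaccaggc
Rpl26: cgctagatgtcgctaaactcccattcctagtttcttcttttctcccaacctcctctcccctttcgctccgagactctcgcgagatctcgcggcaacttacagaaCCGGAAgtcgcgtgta
Rpl35, with the narrow peak, has the longest pyrimidine run of the 6, and Rplp0 has none of the marked letters.

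Nearly all of these genes carried a peak over the promoter at every age. A start-site peak is defined as the widest peak over an annotated start, or over either end of the gene where the promoter table has no entry. It was present in all 9 libraries for 75 of 81 members (92.6%), against 10505 of 21883 genes (48.0%). Over the 51 members with a single annotated start, the start base itself was covered for 48 (94.1%) in each of the 9 libraries. The same share over the 14730 genes with 1 start was 54.7% in infant, 50.3% in young adult and 48.7% in mature adult libraries.

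**Figure D1:**
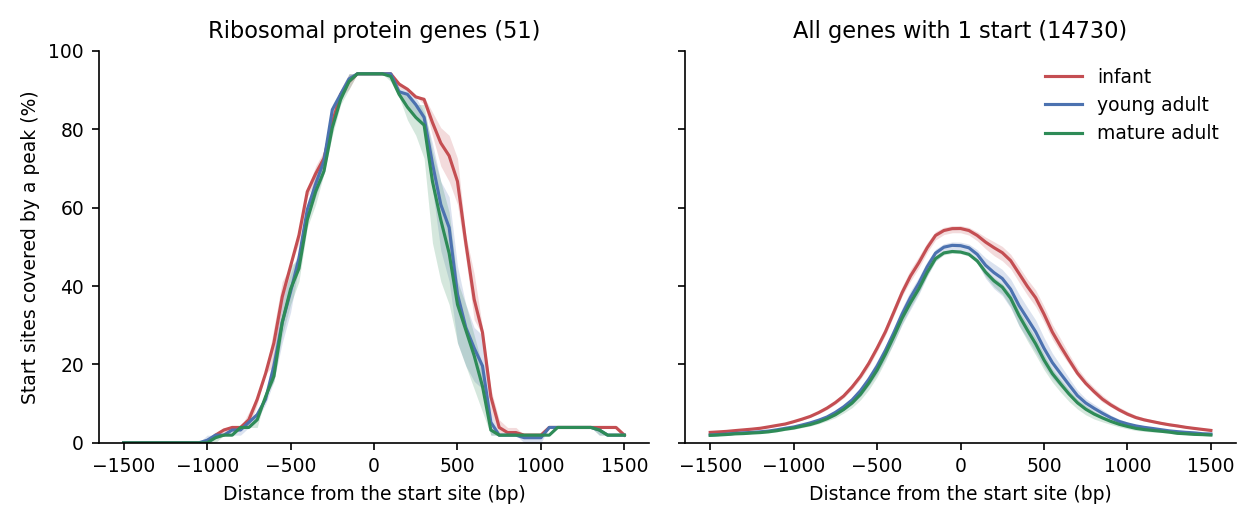
Percent of start sites covered by a peak at each distance from the start (bp, negative upstream), for 51 ribosomal protein genes (left) and 14730 genes with 1 annotated start (right); lines are means of 3 libraries per age and bands their range. The left curves reach 94.1% at every age and separate mainly downstream, where at 500 bp coverage is 66.7% in infant and 35.3% in mature adult libraries.

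The members without a start-site peak are largely copies known from other tissues. Rpl3l, a paralogue of Rpl3 found in muscle, and the testis paralogues Rpl10l and Rpl39l had none in any library, nor did Rpl32l or Rpl17. Rpl17, a protein of the large subunit, has no entry in the promoter table, so only its gene ends were checked and its start was not. It had a peak of 746 to 982 bp inside the gene in all 9 libraries, centred 1476 bp from its nearer end. Rpl29, also of the large subunit, had a gene-end peak of 1061 to 1191 bp in 8 libraries and none in mature adult replicate 1, where the widest peak assigned to it measured 1025 bp. Rps27l, the paralogue of Rps27 that p53 induces, behaved like the common members, with 2 peaks in every library and a start-site peak of 1055 to 1320 bp.

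The windows of Rpl39l (chr16:10170128-10170247, plus strand) and Rpl3l (chr17:24727726-24727845, plus), added after their values were seen, are shown beside those of the open promoters, with capitals as above.
Rpl39l: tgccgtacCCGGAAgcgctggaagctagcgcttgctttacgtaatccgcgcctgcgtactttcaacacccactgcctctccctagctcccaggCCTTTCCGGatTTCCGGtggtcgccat
Rpl3l: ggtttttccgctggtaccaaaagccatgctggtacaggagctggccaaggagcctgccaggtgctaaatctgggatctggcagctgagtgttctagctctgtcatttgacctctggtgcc
The Rpl39l window holds ETS cores and a pyrimidine run at the start, as the windows of Rpl38 and Rpl31 do, and no peak was called there in any of the 9 libraries. The Rpl3l window holds none of the marked letters.

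Start-site peaks of the 75 members were of similar width. Their median over members was 1060, 1033 and 1027 bp in the infant libraries, 959, 986 and 874 bp in the young adult libraries and 863, 944 and 942 bp in the mature adult libraries. The infant medians all lay above the adult ones. As group values these are 1040 ± 17.6 bp, 940 ± 58.4 bp and 916 ± 46.2 bp (mean of library medians ± SD, n = 3 each). Over all 10505 genes with a start-site peak in every library they were 1073 ± 30.8, 949 ± 67.1 and 914 ± 40.9 bp. The median over these genes thus also fell from infant to adult. The 2 lowest adult medians came from the libraries that stand apart. In infant libraries 80.0% to 85.3% of the members' start-site peaks were between 800 and 1300 bp wide, against 61.7% to 62.7% over all genes. In adult libraries the share was 61.3% to 82.7% against 52.8% to 63.1%.

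**Figure D2:**
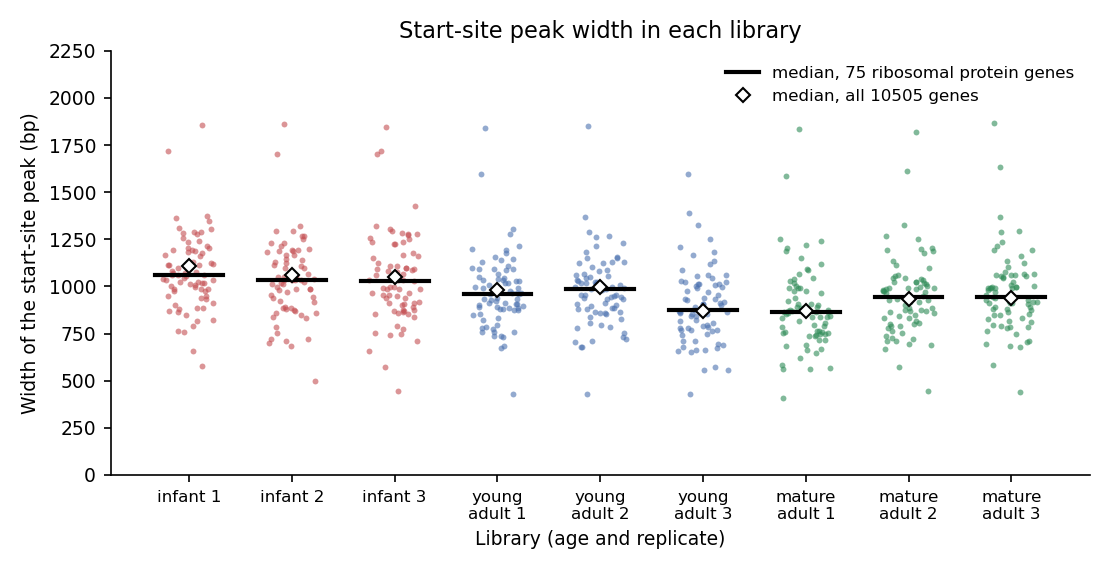
Width of the start-site peak (bp) of 75 ribosomal protein genes in each of 9 libraries, with 1 dot per gene, a bar at their median and a diamond at the median of 10505 genes. Medians of the ribosomal protein genes are 1027 to 1060 bp in infant and 863 to 986 bp in adult libraries, close to the diamonds in each library.

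The narrowing was larger downstream of the start than upstream. Among the 51 members with 1 start, the median reach of the peak downstream of the start was 548 ± 22.1 bp in infant, 458 ± 44.7 bp in young adult and 438 ± 58.9 bp in mature adult libraries (SD, n = 3). The infant values of 522.5 to 564 bp did not overlap the adult values of 369.5 to 488.5 bp. Upstream, the medians were 467 ± 13.2, 438 ± 22.7 and 428 ± 9.07 bp, and infant and young adult values overlapped. Over all genes the downstream medians were 528, 456 and 435 bp in the same order, so the asymmetry was not limited to the ribosomal protein genes.

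The width of the start-site peak differed between members at every age. Rpl7, of the large subunit, had the widest start-site peak, with 1854, 1859 and 1844 bp in infant, 1838, 1851 and 1387 bp in young adult and 1834, 1819 and 1869 bp in mature adult libraries. All but young adult replicate 3 lay within a narrow band. Rpl7 has no entry in the promoter table, so this is a peak over a gene end. Joined over the 9 libraries, it is centred 583 bp outside the gene, and the nearest other gene, Rdh10, is 1449 bp from Rpl7. Rpl38, a protein known for its part in translating Hox mRNAs, followed with 1717, 1700 and 1702 bp, then 1597, 1152 and 1598 bp, then 1583, 1614 and 1636 bp. Rps29 had 1219 to 1425 bp and Rpl31 1193 to 1311 bp. At the other end, Rpl35 had a start-site peak of 564 to 686 bp, Rpl26 of 558 to 889 bp and Rpl23a of 665 to 941 bp. The widest peak assigned to Rpl26 was another one, between 723 and 1542 bp. Rpl36 and Rpl10l also had narrow assigned peaks, of 466 to 625 bp and 244 to 785 bp, which were not start-site peaks. The start-site peak of Rpl36 measured 830 to 888 bp and was given to Micos13 in all 9 libraries. The largest mean widths of the start-site peak were 1795 bp (Rpl7), 1589 bp (Rpl38), 1334 bp (Rps29) and 1270 bp (Rpl31). Like Rpl7, Rps29 and Rpl23a have no entry in the promoter table, and theirs are peaks over a gene end.

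The width of a member's widest peak varied less between libraries than that of most genes. The median SD of log2 width was 0.138 over the 70 members with an assigned peak in every library, against 0.199 over the 13202 such genes. For the start-site peak the gap was smaller, with 0.138 over 75 members against 0.173 over 10505 genes. Rpl12, at the base of the ribosomal stalk, was the steadiest (SD 0.014, widths of 1023 to 1060 bp). That peak was centred 3078 bp outside the gene. The start-site peak of Rpl12 measured 721 to 815 bp (SD 0.059) and was given to Lrsam1 in 7 libraries. Rpl30 (1006 to 1036 bp) and Rpl21 (967 to 1012 bp) came next, with an SD of 0.015 and 0.020. The most variable were Rpl10l (0.55), Rpl26 (0.37) and Rpl14 (0.34). In infant replicate 1 the widest peak of Rpl14, of 1841 bp, lay 27.8 kb from the gene. For the start-site peak the SD was 0.22 at both Rpl26 and Rpl14, and Rpl10l had no such peak. Rplp0, the stalk protein that carries the Rplp1 and Rplp2 dimers and a common reference gene, had widths of 885, 875 and 876 bp in infant, 875, 942 and 892 bp in young adult and 863, 841 and 875 bp in mature adult libraries, and the ages overlapped. Rpsa, a small-subunit protein also known as a laminin receptor precursor, had 1032, 1051 and 1097 bp, then 885, 953 and 868 bp, then 663, 927 and 992 bp. Its infant widths lay above the adult ones, and its change in mature adults of -0.32 ± 0.14 (log2, SE) had a limma adjusted p of 0.133.

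A peak counted for the gene that contained its centre, and a peak outside all genes counted for the closest gene end up to 100 kb away. By this count the typical member had 1 or 2 peaks. The number was the same in all 9 libraries for 31 of the 70 members with a mean of at least 1 (44.3%), against 2218 of 14446 genes (15.4%), and it was exactly 1 in all 9 for 24 members (34.3%) against 12.2%. A gene with few peaks has less room to vary, and the median number was 1.28 for these 70 members and 2.56 over the 14446 genes. Rpl3, a core protein of the large subunit, had the most, with 8, 10 and 8 peaks in infant, 9, 8 and 7 in young adult and 7, 8 and 8 in mature adult libraries. Rpl14 had 5 to 8, Rpl26 3 to 5 and Rpl11 3 to 7 peaks, and Rps14 had 4 in every library.

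The other 11 members had no assigned peak in at least 1 library and were not tested. Rpl32l, Rpl39l, Rpl3l, Rpl37, Rplp2 and Rps25 had none in any library, and the numbers of Rpl4, Rps18, Rps27, Rps27a and Rps28 were 0 in some libraries. For Rplp2, Rpl37 and Rps25 the start-site peak was present in all 9 libraries and its centre lay nearer another gene. Rplp2, the partner of Rplp1 in the stalk, had a peak of 935, 869 and 909 bp in infant, 908, 896 and 761 bp in young adult and 686, 780 and 765 bp in mature adult libraries, all given to Pidd1, whose end is 86 bp away. The peak at Rpl37 was given to Card6 and that at Rps25 to Trappc4. In all, the start-site peak of 10 members was given to a neighbour in at least 1 library, 12 members overlap another gene and 31 have another gene less than 1 kb away.

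Compared with infant, young adult libraries had fewer peaks at 9 of the 70 members tested and more at none (limma on log2(number + 0.5), Benjamini-Hochberg over all genes, threshold 0.05). The background over all 14446 genes was 17.5% lower and 1.13% higher. Between infant and mature adult the same 9 members were lower and none was higher, against a background of 29.4% lower and 1.44% higher. The 9 are 12.9% of the members tested, a smaller share than the background in both comparisons. The median change of the 70 members was 0 in both, against -0.25 and -0.31 over all genes. Unadjusted p was under 0.05 for 10 members in the first comparison and 11 in the second.

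The adult lists are shorter, and dividing by the length of a list turns genes with the same number in every library into calls. Numbers were therefore used unscaled. Scaled to the library total, the split turned: 32 members were called higher and 6 lower in young adults, and 33 higher and 7 lower in mature adults, over a background of 26% higher and 9.09% lower and of 30.4% higher and 13.4% lower. Of those called higher, 31 in each comparison had an unchanged number across the 6 libraries compared. With scaling, the median over all genes was 0.14 in both comparisons.

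The 9 members with fewer peaks in adults belong to both subunits. Rps24, a small-subunit protein whose loss causes Diamond-Blackfan anaemia, had 6, 6 and 7 peaks in infant and 2 in each of the 6 adult libraries. This is a change of -1.45 ± 0.055 (log2(number + 0.5), SE, limma adjusted p of 3.24e-06 in young and 3.05e-06 in mature adults). Rpl11, which binds Mdm2 and links ribosome assembly to p53, had 7 in each infant library, 4, 3 and 3 in young adult and 3 in each mature adult library (adjusted p 0.00087 and 0.00037). In both genes the infant numbers lay above all adult numbers.

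Rplp1, the acidic stalk protein, was the member with the largest fall, from 8, 7 and 5 peaks in infant over 3, 4 and 2 in young adult to 1 in each mature adult library. Its changes were -1.05 ± 0.24 (adjusted p 0.0287) and -2.23 ± 0.24 (adjusted p 0.0011). The young adult call was lost without any 1 of infant replicates 1 and 2 and young adult replicates 1 and 3, with adjusted p between 0.052 and 0.097, and without both libraries that stand apart (0.081). Rpl34 had 5, 6 and 6 peaks, then 2, 2 and 3, then 2, 2 and 1 (adjusted p 0.0211 and 0.0046). Its young adult call was lost without any 1 infant library or without young adult replicate 1 or 2 (adjusted p 0.053 to 0.072), while the mature adult call did not depend on 1 library.

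Rpl37a had 5 in each infant library, 3, 3 and 2 in young adult and 2 in each mature adult library. Rpl29, which binds heparan sulphate, had 5 in each infant and 3 in each adult library, and Rps10 3 and 2. Rpl21 had 2, 3 and 3 in infant and 1 in each adult library, and Rpl27 2 in each infant and 1 in each adult library. For Rpl29, Rps10 and Rpl27 the libraries of an age had equal numbers, which leaves almost no spread, so their very small adjusted p-values (2.06e-08, 2.25e-08 and 1.76e-12 in young adults) go with a difference of 1 or 2 peaks.

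**Figure D3:**
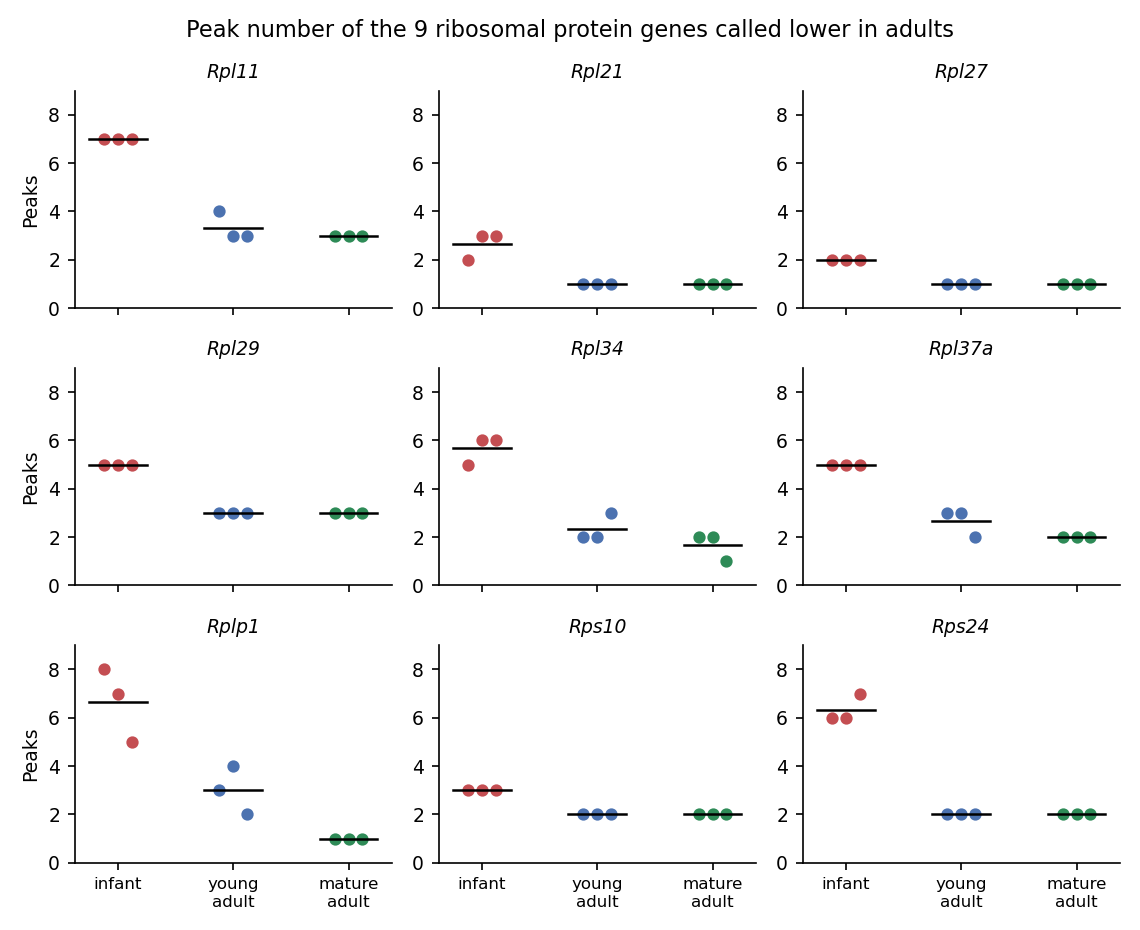
Number of peaks assigned to each of the 9 ribosomal protein genes called lower in adults, with 1 dot per library and a line at the mean of 3 libraries per age. Infant dots lie above all adult dots in each panel, from 8, 7 and 5 at Rplp1 down to 2 at Rpl27.

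Between young and mature adults 0 of the 70 members were called by limma, over a background of 0.824% lower and 0.104% higher. At an unadjusted p under 0.05 there were 2, Rplp1 (limma adjusted p 0.132) and Rpl37a (0.446). Without young adult replicate 3 the count was 2, over 363 lower and 66 higher of 14530 genes. Without that library and mature adult replicate 1 together it was 1, Rpl37a, over 371 lower and 119 higher of 14662.

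Most of the difference in number lay at 10 to 100 kb from the genes. With assignment within 10 kb, Rpl21, Rpl27 and Rps10 were still called in both adult ages, and their regions with a peak in all infant and no adult libraries lay at 3.2, 0.26 and 7.43 kb from a gene end, that of Rpl27 inside the gene. Within 1 kb of a gene end the members had 76, 74 and 75 peaks in infant, 72, 72 and 72 in young adult and 69, 74 and 75 in mature adult libraries, a mean 3.11% lower in mature adults, against 14.9% lower over all genes. Inside the genes, over 1 kb from the ends, there were 7 or 8 in every library. Outside at 1 to 10 kb the numbers were 33, 32 and 29, then 26, 25 and 24, then 21, 27 and 24. Outside at 10 to 100 kb they were 41, 43 and 42 in infant, 21, 19 and 15 in young adult and 14, 14 and 13 in mature adult libraries, a mean 67.5% lower in mature adults, against 39.1% lower over all genes. Infant values in this distance class lay above all adult ones. Only 15 members had any peak at that distance, and 11 of them in a mature adult library. The peak number of the fibroblast, mural and epithelial markers was also lower in adults, as given above, and its part in this difference was not tested. In libraries of bulk cells, a different mix of cells and a difference within the cells cannot be told apart.

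**Figure D4:**
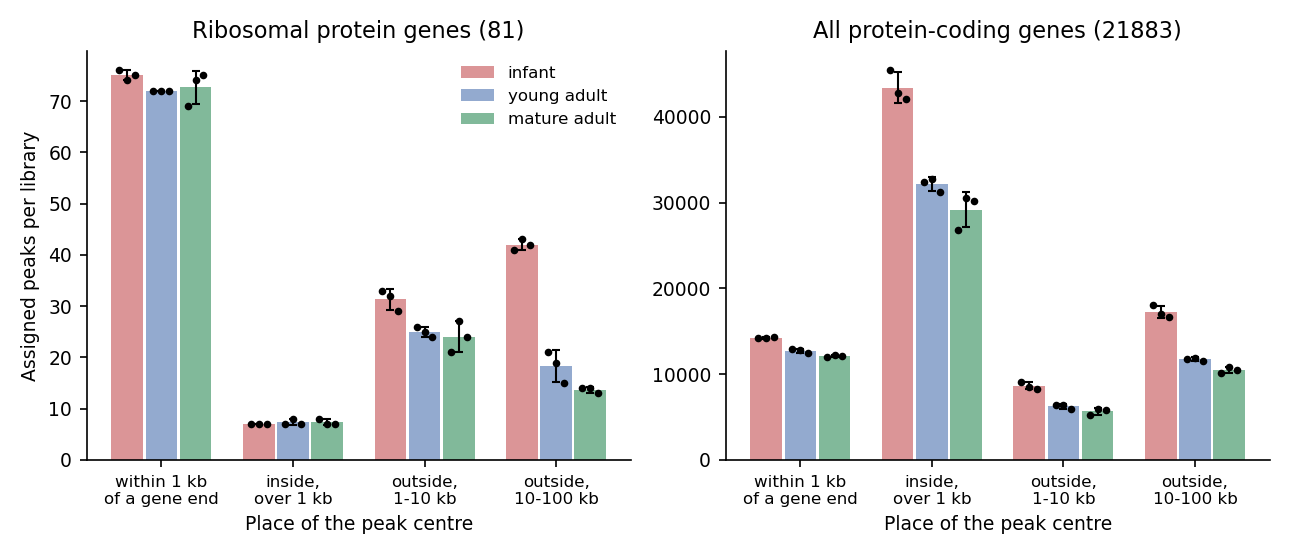
Assigned peaks per library by place of the peak centre, for 81 ribosomal protein genes (left) and all 21883 protein-coding genes (right, own scale); bars are means of 3 libraries per age, whiskers SD and dots libraries. Left, the bars at gene ends stay between 72 and 75 while those at 10 to 100 kb go from 42 to 13.7.

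The same contrast appears in merged regions. Overlapping peaks of the 9 libraries (1 bp or more) were joined, which gave 180 regions assigned to 75 members. Of these, 99 (55%) had a peak in all 9 libraries, against 33.9% of all assigned regions, and they lay at a median of 232 bp from a gene end. Another 18 (10%) had a peak in all 3 infant and in no adult library, against 9.40%. These 18 belonged to 12 members, 14 of them lay over 10 kb outside, and their median distance was 22252 bp. Each of the 9 members called lower in number held at least 1.

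Rps24 (chr14:24490678-24496960) held 2 regions with a peak in all 3 infant and in no adult library, chr14:24507579-24508591, which is 11125 bp from the gene, and chr14:24518991-24519258, which is 22164 bp away. Its promoter region chr14:24490355-24491463 and the region chr14:24500146-24501080 had a peak in all 9 libraries. Rpl11 (chr4:136049354-136053393) held 3 such regions, chr4:136037877-136038405, chr4:136088962-136089699 and chr4:136096076-136096737, at 11213, 35937 and 43013 bp. The nearest other gene, Eloa, is 27705 bp from Rpl11. Rplp1 (chr9:61913283-61914510) held chr9:61859266-61859840 at 53730 bp, with an adjoining region, chr9:61859933-61860662, present in all infant and young adult libraries and in no mature adult library. Rpl34 and Rpl37a held 2 each, at 34002 and 66355 bp and at 21191 and 37673 bp. The region of Rpl27 (chr11:101445241-101445431) was the only one of the 18 within 1 kb of a gene end. Assignment was by position alone, so a region this far away need not act on the gene it was given to.

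Width of the widest assigned peak was tested in the same way, as log2 of bp. In young adults 4 of 70 members were narrower (Rpl19, Rpl39, Rps14 and Rps24) and none wider, over a background of 7.54% narrower and 0.341% wider among 13202 genes. In mature adults 9 were narrower, among them Rpl17, Rpl18, Rpl19, Rpl22, Rpl39, Rps12, Rps14 and Rps26, and none was wider, over a background of 19.6% and 0.5%. The shares of 5.71% and 12.9% lie below the background. Yet 69 of the 70 members had a negative change in mature adults, against 89.6% of all genes, with a median of -0.16 against -0.21. For young adults the medians were -0.14 and -0.16.

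**Figure D5:**
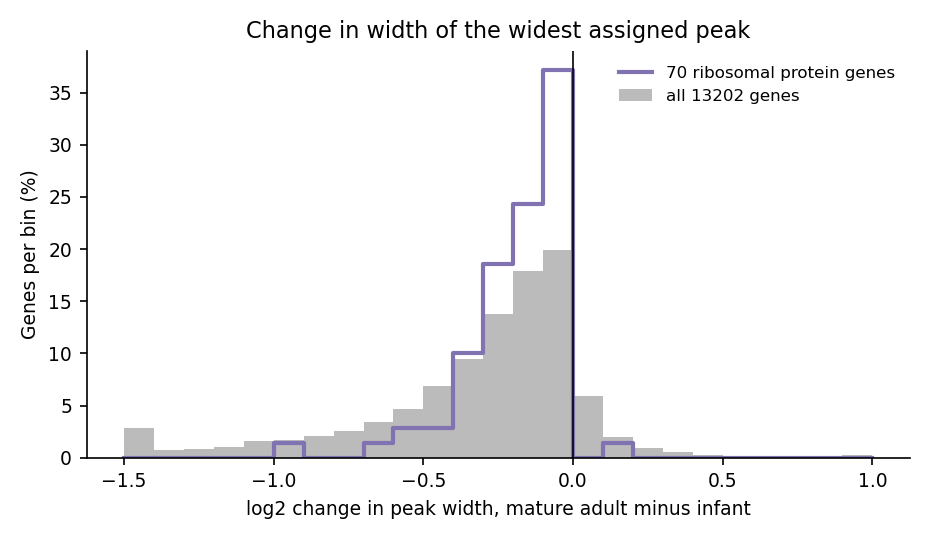
Percent of genes per bin of log2 change in width of the widest assigned peak, mature adult minus infant, for 70 ribosomal protein genes (line) and 13202 genes (grey), with values beyond the axis counted in the outermost bins. The line lies almost wholly below 0 with a median of -0.16, and it lacks most of the long left tail of the grey bars.

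Rps14, a small-subunit protein whose gene is lost in the human 5q- syndrome, narrowed most clearly. Its peak over a gene end measured 1214, 1067 and 1169 bp in infant, 795, 805 and 769 bp in young adult and 795, 802 and 795 bp in mature adult libraries, with no overlap between infant and adult. The changes were -0.54 ± 0.06 (limma adjusted p 0.0024) and -0.53 ± 0.06 (adjusted p 0.0016). Rpl19 of the large subunit had 1283, 1252 and 1235 bp, then 1035, 986 and 929 bp, then 875, 993 and 995 bp (adjusted p 0.0179 and 0.0070). Rpl39, which lines the exit tunnel of the nascent chain, had 1280, 1270 and 1292 bp, then 1091, 1018 and 1181 bp, then 977, 1002 and 997 bp (adjusted p 0.0484 and 0.0051). In both, too, infant widths lay above all adult widths.

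Rps24 was the only member called on both measures. Its promoter peak measured 1070, 1044 and 1096 bp in infant, 891, 881 and 874 bp in young adult (adjusted p 0.0444) and 872, 1026 and 893 bp in mature adult libraries (adjusted p 0.0629). The young adult calls of Rps24, Rpl19 and Rpl39 depended on single libraries. Rpl39 lost it without any 1 library other than young adult replicate 3 (adjusted p 0.063 to 0.138) and Rps24 without any 1 of 7 (0.060 to 0.130). Rpl19 lost it without infant replicate 1, infant replicate 2 or young adult replicate 3 (0.051 to 0.072), so that Rps14 alone was called whichever library was left out.

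Of the members called in mature adults alone, 5 are described, with changes of -0.26 (Rpl17) to -0.38 (Rps26) on the log2 scale. Rpl18 had 987, 984 and 949 bp in infant and 746, 765 and 784 bp in mature adult libraries (adjusted p 0.0166), Rps12 had 1202, 1198 and 1234 bp and 906, 1013 and 1000 bp (0.0151), and Rps26, at the mRNA exit of the small subunit, had 1175, 1138 and 1179 bp and 863, 834 and 992 bp (0.0215). Rpl17 (982, 880 and 948 bp against 746, 757 and 837 bp, adjusted p 0.0385) and Rpl22 (1057, 1045 and 1123 bp against 785, 951 and 912 bp, adjusted p 0.037) passed by less. The infant widths of each of the 5 lay above the mature adult widths.

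Each of these 5 calls was lost without some single library. Rpl18 lost it without infant replicate 1, infant replicate 2 or mature adult replicate 1 (adjusted p 0.052 to 0.061), and Rps12 without infant replicate 1 (0.052). Rps26 lost it without any 1 infant library or mature adult replicate 1 or 2 (0.053 to 0.074). Rpl22 lost it without any 1 infant library, young adult replicate 1 or mature adult replicate 1 or 3 (0.057 to 0.092), and Rpl17 without any 1 library other than young adult replicate 3 and mature adult replicate 3 (0.051 to 0.123). The mature adult calls of Rps14, Rpl19 and Rpl39 held whichever library was left out.

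Without infant replicate 1, infant replicate 2 or mature adult replicate 1 the mature adult count went from 9 to 3, 4 and 4, and without young adult replicate 3 it rose to 14. Of these, mature adult replicate 1 and young adult replicate 3 are the libraries with the narrowest peaks. Without both, the counts were 4 in young and 9 in mature adults, over 838 and 2406 narrower of 13611 genes. The count over all genes moved in the same way. It went from 2586 of 13202 narrower in mature adults to 981 of 13216, 1363 of 13214 and 1351 of 13391. Without young adult replicate 3 it rose to 3265 of 13333. Centred on each library's median width, 1 member was narrower in young adults (Rps14, background 2.42% narrower and 0.947% wider), and in mature adults 2 were wider (Rpl10 and Rps9) and 1 narrower (Rps14, background 6.61% narrower and 4.29% wider). For the start-site peak of the 75 members, 2 were narrower in young adults and 8 in mature adults and none wider, over a background of 4.87% and 14.8% narrower and of 0.0286% and 0.0762% wider. Rpl10, which takes part in joining the subunits, had 1095 to 1112 bp in infant and 1066 to 1134 bp in mature adult libraries, so centring set an even width against a falling median. Between young and mature adults 0 members were called on width by limma (background 0.288% narrower and 0.0303% wider), and 1 had an unadjusted p under 0.05.

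The genes of related lists are given by count, to be read against the shares over all genes, which were 17.5% lower in number in young and 29.4% in mature adults, and 7.54% and 19.6% narrower. Of 78 mitochondrial ribosomal protein genes, which serve a separate ribosome, 74 had a start-site peak in all 9 libraries. Among those tested, 4 and 7 of 64 were lower in peak number in young and mature adults, and 2 and 11 of 59 were narrower. Mrpl23 (log2 change -2.17, adjusted p 0.0191) and Mrps28 (-1.07, adjusted p 0.0084) had the largest falls in number among those called in mature adults. In the mitochondrial list the median change in number was 0 in both comparisons, as for the cytosolic genes. Of 7 ribosomal protein genes outside the naming pattern, all had a start-site peak in all 9 libraries, none of the 5 tested changed in number, and 2 were narrower in mature adults. One of them was Rack1, a scaffold on the small subunit (1395, 1389 and 1357 bp in infant, 967, 1131 and 1106 bp in mature adult libraries).

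Among 25 ribosome biogenesis genes tested, 2 were lower in number in young and 5 in mature adults, and 1 and 5 of 24 were narrower. Utp4, of the small-subunit processome, had 8, 7 and 7 peaks in infant and 0, 1 and 1 in mature adult libraries, and Npm1, a nucleolar chaperone, had 3, 3 and 4 against 1 in each. Of 32 translation factor genes, 6 and 8 were lower in number, and 0 and 2 of 31 were narrower, namely Eif4b and Pabpc1 in mature adults. Eif3m went from 4 peaks in each infant library to 1 in each mature adult library. Of 21 regulators of ribosome synthesis, 5 and 9 were lower in number (23.8% and 42.9%) and 0 and 2 narrower (0% and 9.52%). Gabpa, which encodes the DNA-binding subunit of GABP, had 4, 4 and 5 peaks in infant, 2 in each young adult and 2, 1 and 2 in mature adult libraries. The widest peak of Myc, a driver of ribosome synthesis, measured 1634, 1366 and 1289 bp in infant and 746, 864 and 747 bp in mature adult libraries (adjusted p 0.0365). Of 23 housekeeping genes of other pathways, 4 and 6 were lower in number and 0 and 1 higher.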

How the data were processed

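ATAC-seq peak lists of 9 libraries of sorted mouse lung endothelial cells, 3 per age by the sample titles, were used. Each deposited file is the list of 1 library and, per the file headers, holds peak positions (chromosome, start and end) in bp and no other value, and 0 columns of per-sample values were left unmapped. The submitters' processing notes name Bowtie2, Picard and cutadapt (no versions) and the build mm10. How peaks were called, whether reads were shifted for the transposase and how reads that map to several places were treated is not given in the sources used here. Multiple mapping could matter, because ribosomal protein genes have many near-identical processed copies in the genome. Width is end minus start, and whether starts count from 0 or 1 is not stated, so positions may be off by 1 bp. Repeated intervals were counted once.

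Peaks were assigned to protein-coding RefSeq genes (GRCm38.p6) by their centre, within 100 kb. The gene table has no strand, and the start-site table served where it had an entry. Symbols and lists were chosen with earlier results of these data known. Genes were tested in limma 3.58.1 (R 4.3.3) over all 9 libraries, with a mean-variance trend: log2(number + 0.5) for genes averaging 1 peak or more and log2 width for genes with a peak in every library, each with Benjamini-Hochberg adjustment over all genes. The fit was tested on simulated data. For peak number these held only genes with more peaks than the typical member, so the simulation does not cover genes with few peaks. Changes on the log2(number + 0.5) scale understate those of genes with few peaks. Depth is unknown, so no interval or limit from reads is given.

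Members named are those called in any comparison, the 5 with most peaks, the 10 with fewest among those lacking a peak in a library, the 4 widest and 4 narrowest, the 3 steadiest and 3 most variable in width, and stalk, surface and tissue-restricted members. Rpl4, Rpl10, Rps9, Rpl32l and the infant regions were named after their values were seen. In other lists the 2 largest called changes were eligible. A few values that the rule would name are not reported here. Alternatives changed the counting, scaling, stringency, assignment, filter, pseudocount, width measure, replicate block and libraries. All other steps ran in Python 3.11.15 (pandas 2.3.3, numpy 2.4.6, with figures by matplotlib 3.10.9).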

Additional observations from a re-analysis of the deposited data

How the results depend on the processing

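Peak number depended most on scaling and on distance. The 9 members called in each adult comparison became 38 (young) and 40 (mature) after scaling to the library total, which by its construction raises genes with constant numbers. They became 3 and 3 (of 69) with assignment within 10 kb. Counting peaks that overlap the gene body and 1 kb around it gave 2 and 3 (of 78, 1 higher in each, Rpl4). Both settings leave out distant peaks. Over all genes, assignment within 10 kb called 1711 and 3185 of 13760 lower. The overlap count called 1483 and 2654 of 14268 lower and 142 and 223 higher. An equal number of the widest peaks per library gave 3 higher and 3 lower in young and 4 higher and 5 lower in mature adults. Over all 13628 genes that setting gave 818 higher and 576 lower, then 1208 and 1060. Counting the rows as deposited gave 12 and 22 of 74 members. Over all 15006 genes it gave 3674 and 6134 lower and 122 and 167 higher. The remaining settings gave 8 to 10 and 10 to 11, with 1916 to 3003 and 3431 to 4939 genes lower in all. Between the adult ages 1 member was called without the 2 libraries that stand apart, in place of 0. Over all 14662 genes, 119 were then higher and 371 lower. Width calls, 4 and 9, became 1 and 3 when centred, 13 and 23 for the covered length of all assigned peaks, 2 and 8 for the start-site peak, and 0 and 0 for the start-site peak centred, an alternative chosen after seeing the data. For the last, limma gave 117 and 240 narrower genes among 10505 in all. For covered length it gave 4984 and 7217 narrower among 13202, so those counts rose over all genes too. The start-site width without the 2 libraries that stand apart, also added later, gave 4 and 13, with 486 and 1586 of 10722 genes narrower. The remaining width settings gave 3 to 4 and 9 to 11, with 838 to 1149 and 2301 to 2924 genes narrower. Leaving out each library gave 7 to 9 and 9 to 11 members on number, 0 to 2 between the adult ages, 1 to 4 and 3 to 14 on width, and 0 between the adult ages. Over all genes, the lower calls on number were then 1505 to 2685 and 2584 to 4422, and 94 to 363 between the adult ages. Those on width were 419 to 1078 and 981 to 3265. The replicate block gave 8, 10 and 0 members on number and 1, 6 and 0 on width, but the labels do not say whether the replicate numbers pair samples. With that block, 1916, 3431 and 70 of all genes were lower in number and 635, 1883 and 6 narrower. Same-numbered libraries of different ages correlated in their deviations by -0.16 to 0.16 on number and -0.06 to 0.13 on width. For differently numbered libraries the ranges were -0.22 to 0.28 and -0.12 to 0.12. With 3 libraries per age these values cannot decide on pairing. Over all genes, scaling changed 163 higher and 2526 lower calls in young adults to 3710 and 1296, and 208 and 4244 in mature adults to 4336 and 1918. Of 561 values of single named members under an alternative, 426 kept direction and side of the threshold and 135 lost the call. Depth limits all of these values, and the causes of the changes were not tested beyond what the construction of an alternative shows.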

Other observations

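At 5 members the assigned number was 0 in some libraries although a peak lay over the start or a gene end in all 9. Rps27 had an assigned peak in 1 infant, 1 young adult and 3 mature adult libraries. Its start-site peak was given to Rab13, whose end is 67 bp away, in the other 4, and it was narrower in the libraries where Rps27 held it (567 to 723 bp against 912 to 1038 bp). Rps27a, which encodes a ubiquitin fusion, had 0 assigned peaks in infant, 1, 0 and 1 in young adult and 1 in each mature adult library, while its gene-end peak measured 1130, 1130 and 1159 bp, then 928, 1084 and 804 bp, then 863, 934 and 865 bp, with Clhc1 holding it where it was wider. The peak of Rps18 was given to Vps52 in 8 libraries and that of Rps28 to Ndufa7 in 3. The higher assigned number of Rps27 and Rps27a in mature adults thus came with a start-site peak that was present in every library.

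The only region of a ribosomal protein gene with a peak in all 6 adult and no infant library lay 222 bp outside Rpl4, whose protein lines the exit tunnel, at chr9:64178666-64178902. It was 1 of 180 regions (0.556%), against 0.740% of regions over all genes. The start-site peak of Rpl4 itself was present at every age, with 1122, 1122 and 1094 bp in infant, 1198, 1054 and 1013 bp in young adult and 1017, 971 and 1058 bp in mature adult libraries, and was given to Zwilch in 7 of them.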
